A study of Mus musculus with 9 samples.

Results

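Long noncoding RNAs are transcripts that are not translated into protein, and the testis transcribes more of them than most other tissues, many of them in meiotic and postmeiotic germ cells. Some host small nucleolar RNAs in their introns, some run antisense to a protein-coding gene, and others (lincRNAs, long intergenic noncoding RNAs) lie between genes, and for most of the latter no function is known. Here 7 such loci of 50485 rows in the table were followed in mouse testis: 1810032O08Rik (MSTRG.4631), 1700084E18Rik (MSTRG.11630), 1700017L05Rik (MSTRG.16871), 4930440C22Rik (MSTRG.825), 4930401O12Rik (MSTRG.6083), AC153955.4 (MSTRG.2039) and AC159617.1 (MSTRG.5501). All are annotated as lincRNA, antisense RNA or processed transcript. They were chosen from the study's lists of differentially expressed genes, which were made on these same libraries. The list of Prm2+/Δc against WT chose 5 of the loci, and that of Prm2-/Δc against WT chose 4930440C22Rik and 4930401O12Rik. In the comparison that chose a locus its values are a description, and nothing is read from tests of it there. Every other comparison of the locus shares a group of libraries with that choice.

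The study concerns the part that cP2, the domain cleaved off the precursor of the sperm nuclear protein protamine 2, has in the condensation of sperm chromatin. Whole testes without the tunica albuginea came from male mice of 10 to 13 weeks, with 3 mice in each of 3 groups and 1 mouse per library. WT mice carry the unaltered gene, Prm2+/Δc mice carry 1 allele without the cP2 sequence, and Prm2-/Δc mice, labelled hom, carry that allele over a Prm2 deletion. The Prm2-/Δc group therefore differs from Prm2+/Δc in its second allele and not in the number of Δc alleles. The deletion came from a mouse line that the authors had published earlier, whose Prm2+/- males were mated with Prm2+/Δc females. Other differences that this line may have brought cannot be told apart from the second allele. The Δc allele was made with CRISPR/Cas9 in oocytes of B6D2F1 mice (C57BL/6 crossed with DBA2), and founders were crossed back to C57Bl/6J over 3 or more generations. The labels give the strain of all libraries as C57BL/6. Libraries of mRNA 3′ ends gave total counts of 9070746, 11314641 and 16799651 in WT, 12041708, 16347645 and 20320362 in Prm2+/Δc and 14789266, 17441824 and 12409510 in Prm2-/Δc, in the order of replicates 1 to 3. Values below are normalized counts, that is, estimated read counts divided by a size factor for depth. A library with 0 counts is compatible with up to 3 counts, which equals 2.11 to 4.49 normalized counts depending on the library and covers counting error alone. Folds given below as "at least" set the summed counts of the other group against this floor. They are bounds for these libraries only and do not cover the spread between mice, so leaving out 1 library can give a lower value. The reads have 50 bases, but the read length that was set when counts were derived from coverage is not given in the sources used here, so that 1 count need not be 1 read, and all bounds depend on this. Prm2-/Δc replicate 3 stood somewhat apart, with 14.9% of 17591 loci over 2-fold from the median of the other libraries, against 8.39% to 11.7% in the other 8.

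Because the reads come from transcript 3′ ends, the last 100 bases of the longest annotated transcript of each gene are shown, 5′ to 3′ on the strand of the gene, from the GENCODE M21 transcripts (build GRCm38). Capitals mark the polyadenylation signal AATAAA. Each window lies within the last exon of its transcript.
1810032O08Rik: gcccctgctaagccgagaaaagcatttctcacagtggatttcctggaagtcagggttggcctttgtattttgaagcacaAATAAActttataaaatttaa
1700084E18Rik: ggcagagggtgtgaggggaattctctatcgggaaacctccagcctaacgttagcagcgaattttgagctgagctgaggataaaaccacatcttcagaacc
1700017L05Rik: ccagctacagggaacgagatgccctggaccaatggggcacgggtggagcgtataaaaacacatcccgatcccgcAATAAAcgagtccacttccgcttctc
4930440C22Rik: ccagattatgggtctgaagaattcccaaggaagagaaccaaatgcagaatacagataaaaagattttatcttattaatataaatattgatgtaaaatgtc
4930401O12Rik: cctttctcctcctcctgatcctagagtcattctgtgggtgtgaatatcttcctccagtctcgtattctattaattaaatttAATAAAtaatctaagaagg
AC153955.4: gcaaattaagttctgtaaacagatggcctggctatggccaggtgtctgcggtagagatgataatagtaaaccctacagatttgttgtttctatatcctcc
AC159617.1: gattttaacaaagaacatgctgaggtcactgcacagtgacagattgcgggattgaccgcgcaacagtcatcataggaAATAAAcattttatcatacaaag
The motif AATAAA was found in 4 of the 7 windows, 13 to 20 bases before the annotated end, and the variant ATTAAA was searched on the same strand where AATAAA was absent and added 0 windows. Among the longest transcripts of 10153 long noncoding RNA genes, 34.4% held AATAAA in the last 100 bases and 45.2% held either motif, and among 21902 protein-coding genes these shares were 58.6% and 71.6%. The 3 windows without either motif were those of 1700084E18Rik, 4930440C22Rik and AC153955.4. A missing motif says only that these letters are not in the window.

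1810032O08Rik, named Snhg16 in RefSeq, is the host gene of the small nucleolar RNAs Snord1a, Snord1b and Snord1c on chr11:116671660-116675799 (plus strand, GRCm38), with 7 annotated transcripts that have 6 different 3′ ends. The window shown lies at chr11:116675699-116675798. It also overlaps an exon of St6galnac2, a sialyltransferase gene on the minus strand that shares 497 exonic bases with it, and reads of overlapping genes may have been split between them, since the strand setting of the counting is not given in the sources used here. The locus had 23.9, 25.3 and 21.3 normalized counts in the WT libraries, 62.2, 93.6 and 90.9 in Prm2+/Δc and 8.69, 13.1 and 59.7 in Prm2-/Δc. WT libraries were close to each other, all Prm2+/Δc libraries lay above them, and in Prm2-/Δc replicate 3 lay above and the other libraries below the WT range. Means were 23.5 ± 2.02 (SD, n = 3), 82.2 ± 17.4 and 27.2 ± 28.3. The log2 fold change of Prm2+/Δc against WT, the comparison that chose it, was 1.80 (standard error 0.259). Prm2-/Δc differed from WT by 0.21 (standard error 0.754; adjusted p = 1, edgeR with the Benjamini-Hochberg method), and without Prm2-/Δc replicate 3 the value was -1.10 (adjusted p = 0.907). Against Prm2+/Δc the Prm2-/Δc value was -1.60 (standard error 0.728, adjusted p = 0.999 in edgeR), with all 3 Prm2-/Δc libraries below all 3 of Prm2+/Δc, and -2.91 (adjusted p = 0.0857) without that library. This comparison rests on the same high Prm2+/Δc libraries that took part in the choice of the locus, so it is also given as a description.

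1700084E18Rik is annotated as antisense RNA on chr2:30236795-30238223 (minus strand). It shares 91 exonic bases with the plus-strand gene Lrrc8a, which encodes a subunit of the volume-regulated anion channel, and its window at chr2:30236795-30236894 holds no exon of another gene. The locus split the libraries into high and low ones: WT had 603, 470 and 17.2 normalized counts, Prm2+/Δc 21.5, 28.3 and 17.6, and Prm2-/Δc 561, 16.4 and 26.1. High values occurred in WT replicates 1 and 2 and Prm2-/Δc replicate 1, while WT replicate 3 lay within 1 count of the lowest Prm2+/Δc library, so that no pair of groups was apart. The SD was 84.5% of the mean in WT and 154.9% in Prm2-/Δc, against 24.1% in Prm2+/Δc. The log2 fold change of Prm2+/Δc against WT, which chose the locus, was -4.01 (standard error 1.17). That of Prm2-/Δc against WT was -0.85 (standard error 1.58, adjusted p = 1 in edgeR), and it was -4.09 (adjusted p = 1) without Prm2-/Δc replicate 1. Between the mutant genotypes the value of 3.14 (standard error 1.38, adjusted p = 0.999 in edgeR) became -0.08 without the same library. The low Prm2+/Δc libraries in this comparison also took part in the choice of the locus.

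The lincRNA 1700017L05Rik lies on chr5:77465488-77468851 (plus strand, 2 exons) within the lincRNA gene Gm34728 on the same strand without sharing exonic bases, and its window is chr5:77468752-77468851. WT libraries had 1700, 1679 and 1862 normalized counts, Prm2+/Δc libraries 2396, 3228 and 3688 and Prm2-/Δc libraries 2975, 4570 and 2140. All 6 mutant libraries lay above all WT libraries, and the 2 mutant groups overlapped. WT averaged 1747 ± 100.3 (SD, n = 3), Prm2+/Δc 3104 ± 655 and Prm2-/Δc 3228 ± 1235. The log2 fold change was 0.83 (standard error 0.165) in Prm2+/Δc, which chose the locus. This lies under the cutoff of 1 used for calls here, which the study's methods also state for differential expression. The next larger value among the loci chosen by the same comparison was the 1.80 of 1810032O08Rik. In Prm2-/Δc against WT it was 0.89 (standard error 0.269, adjusted p = 1 in edgeR), so the separation of these groups did not pass the test over all loci, and the WT libraries took part in the choice. Prm2-/Δc against Prm2+/Δc gave 0.05 (standard error 0.300, adjusted p = 0.999 in edgeR).

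The lincRNA 4930440C22Rik lies on chr1:94797083-94802472 (plus strand, window chr1:94802373-94802472), 744529 bases from the nearest protein-coding gene before it (Pdcd1) and 511150 from the next one after it (Fam174a). WT libraries had 55.4, 81.9 and 5.74 normalized counts, Prm2+/Δc libraries 41.9, 54.9 and 55.7, and all 3 Prm2-/Δc libraries 0. WT replicate 3 was low without being at 0, and the WT and Prm2+/Δc groups overlapped. With 3 counts given to each library at 0, Prm2-/Δc was at least 14.5-fold lower than WT, the comparison that chose the locus, and at least 18.3-fold lower than Prm2+/Δc. With 1 library left out the first bound ranged from 8.22 (without WT replicate 2) to 24.7 (without WT replicate 3). The second comparison rests on the same Prm2-/Δc libraries at 0 that chose the locus, so it is also given as a description. Prm2+/Δc differed from WT by a log2 value of 0.11 (standard error 0.796, adjusted p = 0.999 in edgeR) and -0.44 (adjusted p = 0.861) without WT replicate 3.

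The lincRNA 4930401O12Rik lies on chr13:31213410-31241086 (minus strand, 3 exons, window chr13:31213410-31213509). It had 0 counts in all WT libraries, 29.4, 0 and 16.2 normalized counts in Prm2+/Δc and 96.6, 27.1 and 14.1 in Prm2-/Δc. The mutant groups overlapped, and Prm2-/Δc replicate 1 was the highest of the 9 libraries. Prm2-/Δc was at least 13.9-fold higher than WT, the comparison that chose it, and Prm2+/Δc at least 4.27-fold higher. The second bound rests on the WT libraries at 0 that took part in the choice, so it is also given as a description. Prm2+/Δc replicate 2 was at 0 like WT, so that the ranges of WT and Prm2+/Δc touched. Of the 146 raw counts behind the first bound, 100 came from Prm2-/Δc replicate 1. With 1 library left out the bounds ranged from 6.50 (without that library) to 17.8 and from 2.69 to 6.43. The second comparison was not tested, since the counts did not pass the filter on low counts. Prm2-/Δc against Prm2+/Δc gave 1.60 as log2 fold change (standard error 1.22, adjusted p = 0.999 in edgeR), from 0.46 without Prm2-/Δc replicate 1 to 2.44 without Prm2+/Δc replicate 1.

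AC153955.4, a lincRNA gene that GENCODE M21 names 4930431F10Rik, lies on chr10:44730769-44738900 (minus strand, window chr10:44730769-44730868) between Prdm1 and Prep. It overlaps the plus-strand lincRNA gene Gm47392, with which it shares 309 exonic bases. WT libraries had 20.9, 21.7 and 8.20 normalized counts, all Prm2+/Δc libraries 0, and Prm2-/Δc libraries 9.66, 5.75 and 10.9. The order of the means was WT (16.9 ± 7.58, SD, n = 3), Prm2-/Δc (8.76 ± 2.67) and Prm2+/Δc, and WT and Prm2-/Δc overlapped through WT replicate 3. Prm2+/Δc was at least 5.96-fold lower than WT, the comparison that chose it, and Prm2-/Δc at least 3.28-fold higher than Prm2+/Δc. The second bound rests on the same Prm2+/Δc libraries at 0 that chose the locus, so it is also given as a description. The raw counts behind these bounds sum to 42 in WT and 27 in Prm2-/Δc, and neither comparison passed the filter. Prm2-/Δc against WT gave -0.93 as log2 fold change (standard error 0.607, adjusted p = 1 in edgeR).

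AC159617.1, a lincRNA gene named 4930559C10Rik in GENCODE M21, lies on chr12:93416458-93444823 (minus strand, 4 exons, window chr12:93416458-93416557), 1567300 bases from the nearest protein-coding gene. All WT libraries had 0 counts, Prm2+/Δc libraries had 29.4, 16.3 and 26.1 normalized counts and Prm2-/Δc libraries 30.9, 50.9 and 0. Prm2-/Δc replicate 3 was at 0 like WT, so that the ranges of WT and Prm2-/Δc touched. Prm2+/Δc was at least 7.14-fold higher than WT, the comparison that chose it, and Prm2-/Δc at least 8.94-fold higher, the latter without a test because of the filter. This second bound rests on the WT libraries at 0 that took part in the choice, so it is also given as a description. The second bound ranged from 4.94 (without Prm2-/Δc replicate 2) to 12.6 (without Prm2-/Δc replicate 3). Prm2-/Δc against Prm2+/Δc gave 0.20 as log2 fold change (standard error 1.10, adjusted p = 0.999 in edgeR), 0.77 without Prm2-/Δc replicate 3 and -0.63 without Prm2-/Δc replicate 2.

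**Figure D1:**
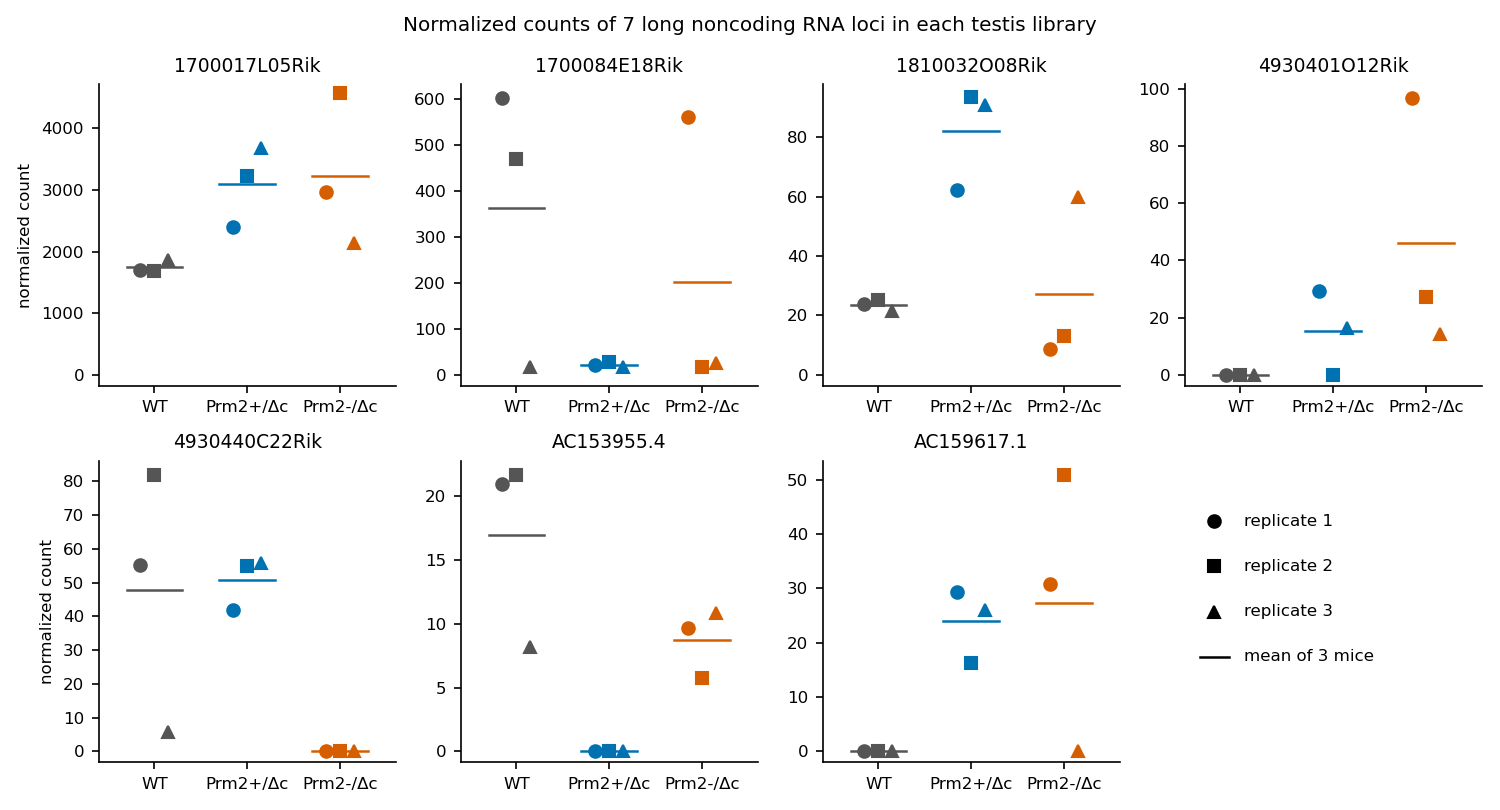
Normalized counts (linear axis) of each locus in the 9 testis libraries, with 1 symbol shape per replicate number and a line at the mean of 3 mice. 1700084E18Rik shows high values in 3 libraries from 2 groups, and 4930440C22Rik, AC153955.4, 4930401O12Rik and AC159617.1 each have 1 group with all 3 libraries at 0.

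Fewer cells that express a transcript and less RNA per cell cannot be told apart in whole testis. Between Prm2+/Δc and WT, 5 of the 7 loci passed the filter on low counts and edgeR called 0 of them (adjusted p under 0.05, log2 fold change beyond 1 in either direction), against 0.0730% of 17815 loci tested. An unadjusted p under 0.05 was found for 4 of the 5 and for 3.70% of all loci. DESeq2 called 2 (1810032O08Rik and AC159617.1), against 0.494% of all loci. Most loci in these counts were chosen by this comparison, so nothing is read from them. Between Prm2-/Δc and WT, 5 passed the filter and edgeR called 0, against 0.00567% of 17637 loci, with 2 at an unadjusted p under 0.05 (3.20% of all loci). DESeq2 called 1, 4930401O12Rik, which that comparison had chosen, against 0.369% of all loci. Among the 5 loci that the Prm2-/Δc list had not chosen, 4 passed the filter, 1700017L05Rik had an unadjusted p under 0.05, and neither tool called any. Over all 7 loci with 1 library left out, 2 to 4 of the 6 or 7 tested had an unadjusted p under 0.05 in edgeR. Between Prm2-/Δc and Prm2+/Δc, which chose none of the loci, 6 passed the filter and edgeR called 0, against 0.0111% of 17986 loci. An unadjusted p under 0.05 was found for 1, 4930440C22Rik, and for 4.08% of all loci. DESeq2 called 1, also 4930440C22Rik, against 0.545% of all loci. Both rest on the Prm2-/Δc libraries at 0 that chose the locus, so nothing is read from them. With 1 library left out, 1 to 3 of the 6 or 7 loci tested had such a p in edgeR, with 3 without Prm2-/Δc replicate 2 or 3. All 3 comparisons share libraries with each other and with the choice of the loci, so nothing is read from the counts with 1 library left out.

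**Figure D2:**
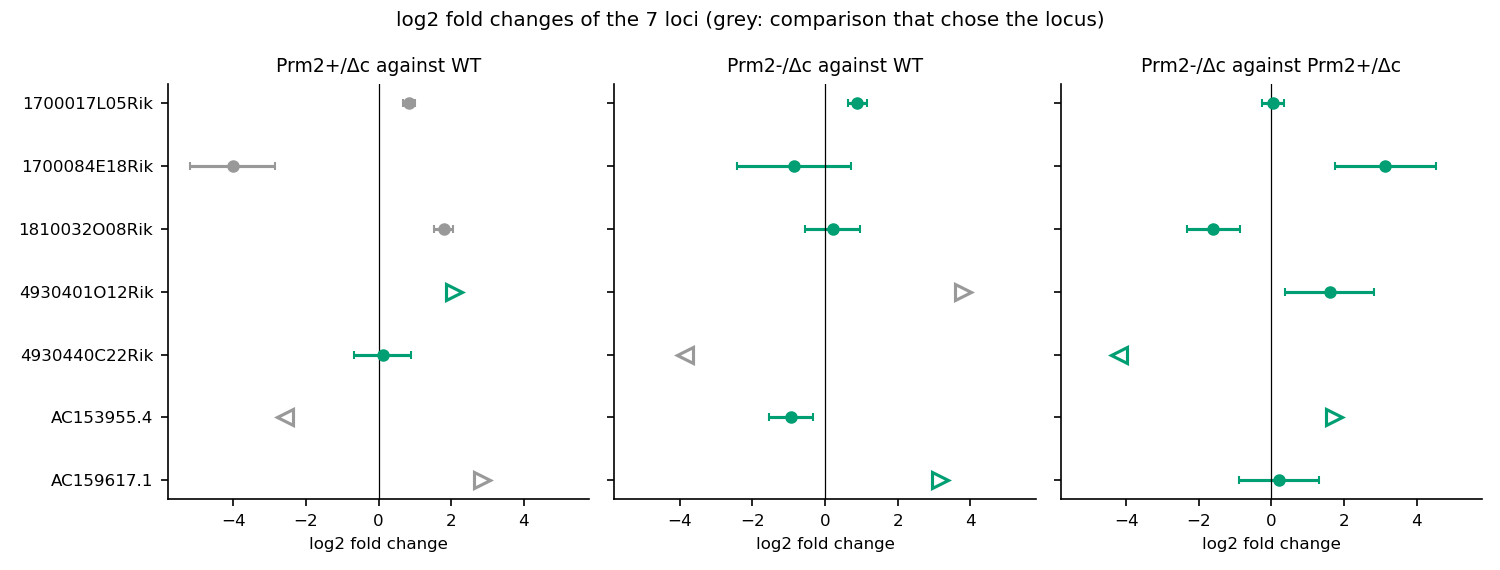
Log2 fold changes of the 7 loci in the 3 comparisons. Points are edgeR estimates with their standard error, open triangles are lower bounds of the size where all libraries of 1 group had 0 counts, and grey marks the comparison that chose the locus. For 1700017L05Rik the values against WT are 0.83 and 0.89, and those of 1700084E18Rik, 4930401O12Rik and AC159617.1 between the mutant groups have standard errors over 1.

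The 7 genes lie on 7 different chromosomes. Their annotated type was part of the choice, with lincRNA for 5 of the 7. The longest transcripts have 1 to 5 exons and 558 to 1988 bases. In the 300 bases around the RefSeq transcription start (GRCm38.p6, all 7 matched), 1700084E18Rik had 73.0% G or C and 37 CG dinucleotides in a window (chr2:30237582-30237881) that also spans the start of the opposite-strand gene Lrrc8a, and Snhg16 had 57.3% and 22. The medians of 32851 promoters of this length were 52.7% and 7. 1700017L05Rik had 9 CG dinucleotides, and the remaining 4 lincRNA promoters had 0 to 3. All 5 lincRNA promoters lay below the median of G or C, with 35.3% to 45.3%. Over the 9 libraries, Pearson correlations of log2(normalized count + 1) between loci ranged from -0.70 (1810032O08Rik and AC153955.4) to 0.88 (1700017L05Rik and AC159617.1). These values describe 9 libraries that share their normalization and took part in the choice of the loci.

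The choice of the 7 loci did not use the loci numbered next to them. Numbers followed position where this could be seen, since of 130 successive pairs of named loci on the same chromosome all 130 had the higher number at the higher start. The flanking loci themselves have no position in the table, so their distance is not known. Of the 70 loci up to 5 numbers away, 11 had 0 counts in all libraries and 0 had a name. In Prm2+/Δc against WT, 46 could be tested, edgeR called 0 (0.0730% of all loci), DESeq2 called 0 (0.494%) and 4 had an unadjusted p under 0.05 in edgeR, which is 8.70% against 3.70% of all loci. In DESeq2 8 had such a p, 17.4% against 6.46%. The edgeR count depended on single libraries, being 1 of 47 without WT replicate 3, 2 without Prm2+/Δc replicate 2 or 3 and 5 without WT replicate 1 or 2. The median absolute log2 fold change was 0.21, against 0.187 for all loci. In Prm2-/Δc against WT, both tools called 0 of 47 (edgeR 0.00567% and DESeq2 0.369% of all loci). An unadjusted p under 0.05 was found for 0 against 3.20% of all loci, and the median was 0.15 against 0.206. With 1 library left out, 2 of 49 had such a p in edgeR without Prm2-/Δc replicate 1 or 3, 1 of 50 without WT replicate 3 and 0 in the other fits. Between the mutant genotypes both tools called 0 of 51 (edgeR 0.0111% and DESeq2 0.545% of all loci), with 1 at an unadjusted p under 0.05 against 4.08% of all loci and a median of 0.27 against 0.199. With 1 library left out that count ranged from 0 to 9, with 9 of 51 without Prm2-/Δc replicate 3 and 4 of 52 without Prm2-/Δc replicate 1. In the same fits edgeR calls over all loci also rose, from 0.0111% to 0.375% and 0.0531%. The share of all loci at an unadjusted p under 0.05 in these fits is not given here, so nothing is read from the higher counts.

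The directly adjacent loci are given by their range over the 9 libraries. Next to 1810032O08Rik, MSTRG.4632 had 10400 to 15060 normalized counts and MSTRG.4630 had 65.7 to 107.5, and their log2 fold changes in Prm2+/Δc against WT were -0.24 and 0.25. Over the 9 libraries MSTRG.4630 varied with 1810032O08Rik (r = 0.85), being lowest in Prm2-/Δc replicates 1 and 2 and highest in Prm2-/Δc replicate 3, and MSTRG.4632 varied against it (r = -0.77). Next to 1700084E18Rik, MSTRG.11629 was even, with 220.2 to 322 normalized counts. MSTRG.11631 had 1285, 187 and 256 in WT, 924, 1305 and 1072 in Prm2+/Δc and 1085, 77.2 and 1200 in Prm2-/Δc. Low libraries of MSTRG.11631 were WT replicates 2 and 3 and Prm2-/Δc replicate 2, a different set from the low libraries of 1700084E18Rik. Next to 1700017L05Rik, MSTRG.16872 ranged from 38.6 to 271.6 normalized counts with its highest value in Prm2-/Δc replicate 3, and MSTRG.16870 was at 0. Next to 4930440C22Rik, MSTRG.826 had 508 to 604 and MSTRG.824 had 41.9 to 81.5 in all 9 libraries, including the 3 in which 4930440C22Rik had 0. Next to 4930401O12Rik, MSTRG.6084 had 349 to 496.5, while MSTRG.6082 had at most 2.99. Next to AC153955.4, MSTRG.2038 had 80.8 to 124.4 and MSTRG.2040 had 0 counts. Next to AC159617.1, MSTRG.5500 had 172.7 to 275.5, and MSTRG.5502 had at most 4.35. When the counts of each locus were added to those of its adjacent loci, the Prm2+/Δc value of 1700084E18Rik against WT went from -4.01 to 0.21 and that of 1810032O08Rik from 1.80 to -0.23, since the adjacent loci held most of the summed counts.

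**Figure D3:**
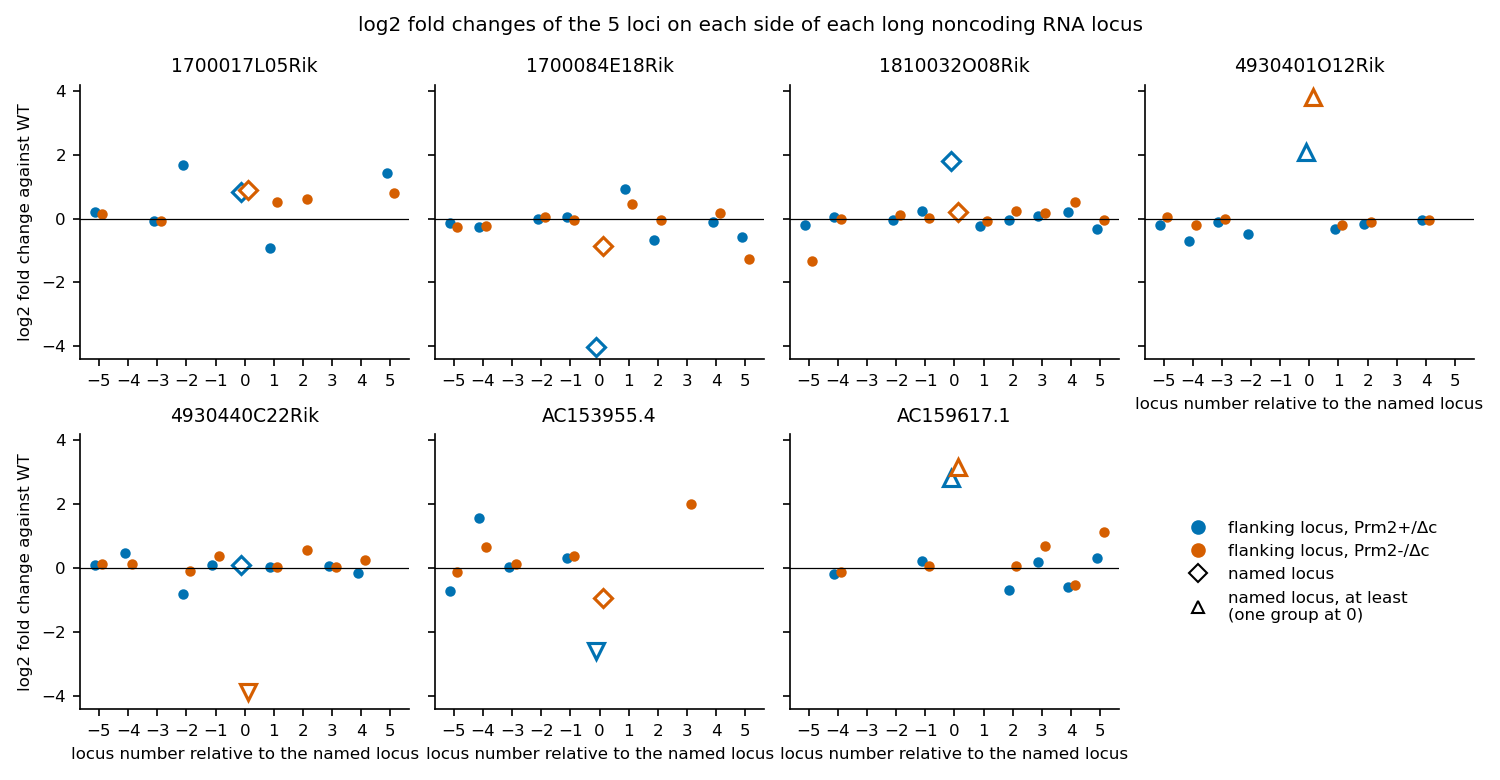
Log2 fold changes against WT (vertical axis) of the loci numbered up to 5 below and above each of the 7 loci, with blue for Prm2+/Δc and orange for Prm2-/Δc. Open diamonds are the 7 loci themselves and open triangles their lower bounds; loci without a point did not pass the filter on low counts. MSTRG.2042, 3 numbers above AC153955.4, has the highest value among flanking loci that passed, 2.01 in Prm2-/Δc. It passed the filter through the Prm2-/Δc libraries, where it is high, and did not pass in Prm2+/Δc against WT.

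For each locus, the most similar pattern over the 9 libraries was sought among 1635 named rows with a mean of at least 10 normalized counts, as a description. For 4930440C22Rik it was that of Prr13 (Pearson r = 0.984 over 9 libraries), with 143.6, 122.9 and 17.2 normalized counts in the WT mice, 99.5, 135.6 and 103.6 in Prm2+/Δc and 9.86 or less in Prm2-/Δc. Both genes were low in WT replicate 3 and in all Prm2-/Δc libraries. For AC159617.1 it was Trim17, a tripartite motif gene of the ubiquitin ligase family (r = 0.982), with 563, 727 and 973 in WT, 3362, 3510 and 3486 in Prm2+/Δc and 3788, 4577 and 616 in Prm2-/Δc. Prm2-/Δc replicate 3 lay at the WT level for both. For AC153955.4 it was Slc25a3, the mitochondrial phosphate carrier (r = 0.962), with means of 1538, 111.1 and 1601 normalized counts in WT, Prm2+/Δc and Prm2-/Δc. For 1810032O08Rik it was Crem, a transcription factor of spermatids (r = 0.929). Crem had 446, 440 and 1084 normalized counts in the WT mice, 2505, 2822 and 2389 in Prm2+/Δc and 311, 375 and 2048 in Prm2-/Δc. Both were high in the Prm2+/Δc libraries and Prm2-/Δc replicate 3.

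1700084E18Rik was most like Tgfa, a growth factor gene (r = 0.923), which had 46.4 and 43.4 normalized counts in WT replicates 1 and 2, 38.6 in Prm2-/Δc replicate 1 and 14.8 to 26.1 in the other libraries. 1700017L05Rik was most like Ppp4r2, a regulatory subunit of protein phosphatase 4 (r = 0.919, means of 766.5, 1362 and 1286). 4930401O12Rik was most like Gm20789, an unprocessed pseudogene that also lies on chromosome 13 (r = 0.916), with 25.8 to 45.4 normalized counts. Of these 7 genes, Prr13, Trim17, Slc25a3, Crem and Ppp4r2 are in the study's lists, which were chosen on the same libraries, so that a similar pattern was favoured. Where libraries fall into a high and a low set, r mainly states that the same libraries are in each.

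**Figure D4:**
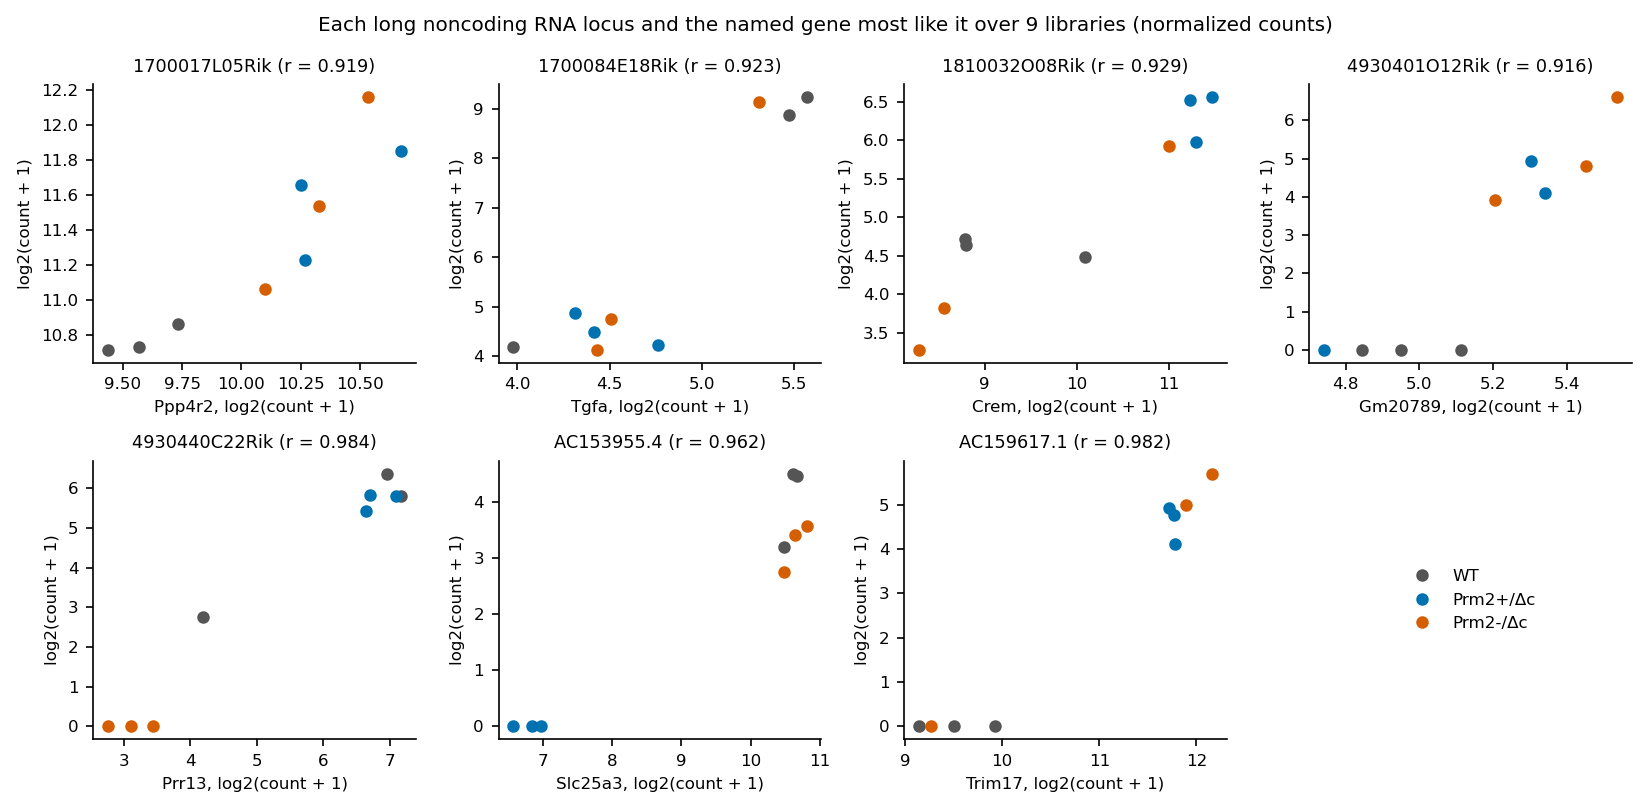
Each locus (vertical axis) against the named gene most like it (horizontal axis), both as log2(normalized count + 1), with 1 point per library coloured by genotype and Pearson r over 9 libraries in the title. The points of 4930440C22Rik with Prr13 and of AC159617.1 with Trim17 form a low and a high set, with Prm2-/Δc replicate 3 among the low points of the latter.

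The study's lists hold 5 further long noncoding RNA genes, also chosen on these libraries. Gm37933, chosen in both lists, had 0 counts in all WT libraries, 47.2 to 52.9 normalized counts in Prm2+/Δc and 47.3 to 68.4 in Prm2-/Δc, so that all 6 mutant libraries lay above WT. Gm13003 (chr4:137159082-137165066, minus strand), chosen in Prm2-/Δc, had 52.4, 57.8 and 71.4 normalized counts in the WT mice, 70.1, 75.5 and 0 in Prm2+/Δc and 0, 9.04 and 2.17 in Prm2-/Δc, so that Prm2+/Δc replicate 3 was as low as the Prm2-/Δc libraries. Gm15738 (chr16:13354374-13468755, minus strand, antisense), chosen in Prm2-/Δc, had 299.4 to 420.4 in WT, 252.3 to 438 in Prm2+/Δc and 0, 20.5 and 7.60 in Prm2-/Δc. In Prm2+/Δc its log2 fold change against WT was -0.15 (adjusted p = 0.999 in edgeR). Gm29264 and Gm26974 also had 0 counts in all WT libraries. Gm29264, chosen in Prm2+/Δc, had 13.6, 21.5 and 23.3 normalized counts there and 0, 21.4 and 0 in Prm2-/Δc. Gm26974, chosen in Prm2-/Δc, had 28.0, 21.4 and 18.5 there and 0, 0 and 17.6 in Prm2+/Δc. At Gm13003, Gm29264 and Gm26974, as at AC159617.1 and 4930401O12Rik, at least 1 library of a group stood with the opposite set.

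Rows that carry an Ensembl identifier were not used in the choice. Of 3883 such rows annotated as long noncoding RNA genes, 2907 were at 0 in all libraries, and together they held 0.0238% of all counts. In edgeR 0 of 89 tested were called between Prm2+/Δc and WT, 0 of 92 between Prm2-/Δc and WT and 0 of 109 between the mutant genotypes, while edgeR called 0.0730%, 0.00567% and 0.0111% of all loci. In each comparison 3 of the rows had an unadjusted p under 0.05, which is 3.37%, 3.26% and 2.75% of those tested, beside 3.70%, 3.20% and 4.08% of all loci. With 1 library left out these counts ranged from 2 to 8, from 3 to 6 and from 4 to 7. The rows tested then numbered 101 to 168, 103 to 151 and 137 to 166. With no library left out, DESeq2 called 0, 0 and 1, against 0.494%, 0.369% and 0.545% of all loci. That row was E330035G20Rik, a lincRNA gene, with 0, 8.44 and 4.10 normalized counts in the WT mice, 0 in all Prm2+/Δc libraries and 12.6, 9.86 and 11.9 in Prm2-/Δc (adjusted p = 0.0362 in DESeq2), where it passed the filter through the Prm2-/Δc libraries. The most abundant of these rows were A930038B10Rik (WT 52.2 ± 13.1, Prm2+/Δc 59.8 ± 12.9 and Prm2-/Δc 28.7 ± 9.66, mean and SD, n = 3), Gm45768 (40.2 ± 8.41, 41.1 ± 0.844 and 43.9 ± 14.6) and 5033428I22Rik (39.2 ± 14.1, 36.6 ± 15.9 and 48.4 ± 18.6, in the same order). For A930038B10Rik all Prm2-/Δc libraries lay below all WT libraries, with a log2 fold change of -0.86 and an adjusted p of 1 (edgeR with the Benjamini-Hochberg method).

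Marker genes of the cell types in the tissue could be read for the few that have a named row. All 7 germ cell genes of the list had one, with Cylc1 the most abundant, and their sum was 7799, 8670 and 7818 normalized counts in the WT mice, 6458, 4816 and 4640 in Prm2+/Δc and 2340, 4973 and 12390 in Prm2-/Δc. The genes did not move together, so the sum describes none of them. Cylc1, M1ap and Ttll6 were lower in all Prm2+/Δc than in all WT libraries, Crem was higher, and Adam30 was lower in all Prm2-/Δc libraries than in all others. Cylc1 was also low in Prm2-/Δc replicates 1 and 2 (857 and 945) and high in replicate 3 (5943). Tdrd1 was high in Prm2+/Δc replicate 1 and Prm2-/Δc replicates 2 and 3 (2221, 2177 and 1538) and had 128.0 to 179.7 in the other 6, and Tcam1 was high in WT replicates 2 and 3 and Prm2-/Δc replicate 3. A numbered locus has a name only if it is in the study's lists, so these genes, Myl9 and Hbb-bs below were themselves chosen on these libraries and are not an independent measure of cell numbers. For smooth muscle and peritubular cells 1 of 5 genes had a row, Myl9, a myosin light chain, with 572, 504 and 6.56 in WT, 4.53, 7.72 and 11.3 in Prm2+/Δc and 675, 11.5 and 405 in Prm2-/Δc. Myl9 was high in the 3 libraries in which 1700084E18Rik was high, and also in Prm2-/Δc replicate 3 (r = 0.84 over 9 libraries), and its correlation with AC153955.4 was 0.78. Its part in the values of these loci was not tested. For red blood cells 1 of 5 had a row, the globin gene Hbb-bs, with 578, 381 and 491 in WT, 783, 1010 and 1415 in Prm2+/Δc and 567, 688 and 1137 in Prm2-/Δc. Hbb-bs was highest in the libraries in which 1810032O08Rik was high (r = 0.74), and its correlation was -0.69 with AC153955.4 and -0.60 with 1700084E18Rik. Its part in these loci was not tested either. Of the Sertoli cell list 1 of 5 had a row (Amh, at 0 in all libraries) and of the Leydig cell list 0 of 5. All 5 epididymis genes (Lcn5, Crisp1, Adam7, Lcn8 and Spint4) and both liver genes (Alb and Apoa1) were at 0 in rows with an Ensembl identifier. Reads of a gene that was assembled as a numbered locus are counted under that number, so a 0 in such a row does not show that the gene was silent.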

How the data were processed

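RNA of 9 testes was analysed, with groups taken from the labels. QuantSeq libraries of mRNA 3′ ends were sequenced by the authors with reads of 50 bases, which were mapped with HISAT2 2.1 to GRCm38 (Ensembl release 89) and assembled into loci with StringTie 1.3.3. They deposited estimated counts (expected counts) per locus as whole numbers, without normalization, in a table of 50485 rows, of which 25503 carry a locus number and 24982 an Ensembl identifier. The study tested with DESeq2 1.16.1. Depth was 9070746 to 20320362 counts per library. Locus names come from the study's gene lists, and positions, gene types and transcript ends from GENCODE M21 of the same build (24873 Ensembl rows matched).

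Groups were compared in pairs with edgeR 4.0.16 in R 4.3.3 (quasi-likelihood test, TMM, filterByExpr, Benjamini-Hochberg over all rows tested). A locus was called with adjusted p < 0.05 and a log2 fold change beyond 1 in either direction. The standard error is the size of the log2 fold change over the root of its F statistic. Normalized counts used size factors of DESeq2 1.42.0 over the 9 libraries. A group with at most 3 counts in each library was treated as at the floor. Folds against it compare summed counts per summed size factor, with 3 counts for each library of that group. Alternatives were DESeq2, scaling in edgeR by DESeq2 size factors or by library totals, filters of 1 count or of a mean of 10 counts, a joint fit of all 9 libraries, the replicate number as a block, no fold cutoff, each library left out, and counts summed with the adjacent loci. Of 36 pairs of libraries, the smallest chi-square per locus was 28.6, so no 2 libraries looked like copies.

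The loci, gene lists and markers were chosen with earlier results of these data known. Named genes are the 7 loci, their adjacent loci and any called or named locus up to 5 numbers away, the named row most correlated with each, the other long noncoding RNA genes of the study's lists, and the called and the 3 most abundant Ensembl rows of that kind. MSTRG.2042 was named after its value was seen.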

Additional observations from a re-analysis of the deposited data

How the results depend on the processing

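Of 126 recomputed counts of calls (the 7 loci, their flanking loci and the Ensembl rows of long noncoding RNA genes in 3 comparisons), 120 equalled the value of 0 reported above. DESeq2 called 2 of the 7 loci in Prm2+/Δc and 1 in Prm2-/Δc against WT, and 1 of the 7 and 1 Ensembl row between the mutant genotypes; the cause was not tested. With 1 library left out, calls of the 7 loci ranged from 0 to 1 in Prm2+/Δc against WT and between the mutant genotypes. They were 0 in Prm2-/Δc against WT. Without WT replicate 3 the called locus was 1700084E18Rik, which that comparison had chosen, and calls over all loci went from 0.0730% to 0.206%. Without Prm2-/Δc replicate 3 it was 4930440C22Rik, and calls over all loci went from 0.0111% to 0.375%. The latter call rests on the Prm2-/Δc libraries at 0 that chose the locus, so nothing is read from either call. Flanking loci and Ensembl rows had 0 calls in all of these fits.

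Of 224 recomputed log2 fold changes of the loci, 15 changed sign where the locus had not been chosen, all without a call. In the comparisons that chose the locus, summing with adjacent loci also turned 1700084E18Rik (0.21), 1810032O08Rik (-0.23) and 4930401O12Rik (-0.05). Summing with adjacent loci gave 0.06 for 1700084E18Rik, -0.09 for 1810032O08Rik and 0.24 for AC153955.4 in Prm2-/Δc against WT, and -0.17 for 1700084E18Rik, 0.13 for 1810032O08Rik and -0.14 for AC159617.1 between the mutant genotypes, since adjacent loci dominate these sums. Leaving out 1 library gave -0.44 to 0.78 for 4930440C22Rik in Prm2+/Δc and -1.10 to 0.63 for 1810032O08Rik in Prm2-/Δc against WT. Between the mutant genotypes the ranges were -0.28 to 0.27 for 1700017L05Rik, -0.08 to 3.69 for 1700084E18Rik and -0.63 to 0.77 for AC159617.1.

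The replicate numbers do not pair the libraries. Correlations of deviations between the 9 same-numbered pairs were -0.227 to 0.069, and a library correlated best with its own number in 6 of 18 cases. With the replicate block, calls over all loci went from 13 to 3, from 1 to 0 and from 2 to 0 in the 3 comparisons, and calls of the 7 loci, flanking loci and Ensembl rows were 0. The block turned 1810032O08Rik in Prm2-/Δc against WT to -0.28 and AC159617.1 between the mutant genotypes to -0.44.

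With 3 mice per group and at most 100 counts per library at 4 of the 7 loci, small differences are below what these tests resolve. Large differences can also go without a call. Gm37933, with 0 counts in all WT libraries and 47.2 to 52.9 normalized counts in Prm2+/Δc, was not called by edgeR in that comparison. The absence of a call therefore does not show that a locus was unchanged.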
